A study of Mus musculus with 20 samples.

Results

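The genes described here are the receptors *Egfr*, *Erbb2*, *Erbb3*, *Met*, *Insr* and *Axl* and the ligands *Hgf*, *Tgfa*, *Areg* and *Hbegf*, which form the core of the EGFR, MET and insulin receptor system. They were chosen by gene symbol, and all 10 were found among the 50559 genes counted in MYC-driven mouse liver tumors and in liver. With a filter of at least 1 CPM (a read count scaled to the size of its library) in at least 5 libraries, 9 of the 10 were among the 14333 genes tested, and *Areg* was not.

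RNA sequencing was available for 20 libraries in 4 groups of 5. All mice were wild-type C57Bl6J, and per the study's methods they were females that received plasmids in the tail vein at 6 to 8 weeks of age, by hydrodynamic gene transfer, which transfects hepatocytes. Tumors were raised with a plasmid for human MYC under the EF1a promoter, which all 3 tumor groups shared, together with a plasmid for the hormone FGF19 (FGF19+MYC), for its engineered analog Aldafermin (Aldafermin+MYC), or for a CRISPR guide against *Trp53* (sgTrp53+MYC). A plasmid for the Sleeping Beauty transposase, which integrates transposon plasmids, was injected with them. The liver group is labelled as not treated, whereas the study describes its control livers as having received a plasmid for a red fluorescent protein. Mice were fasted for 5 h before collection, and RNA came from individual tumors, each of a different mouse.

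The libraries held 18004977 to 66354724 reads assigned to genes. *Trp53*, the targeted gene, read 18.7 to 79.9 CPM in sgTrp53+MYC tumors, below the 90.8 to 176 CPM of all Aldafermin+MYC and FGF19+MYC tumors (log2 fold change of the pooled groups over sgTrp53+MYC 1.57, standard error (SE) 0.24, adjusted p = 0.000159, edgeR's quasi-likelihood test with Benjamini-Hochberg adjustment), while liver read 28.8 to 36.4 CPM. The tumor markers *Afp* and *Gpc3* summed to 455 to 5077 CPM in tumors and to 1.36 to 7.03 CPM in liver. The 8 hepatocyte markers summed to 3555 to 29012 CPM in tumors and to 183688 to 228423 CPM in liver, and all 8 were detected in every group. The sgTrp53+MYC libraries were deposited in a table of their own and were sequenced more deeply, and 5.34% to 6.82% of their reads were not aligned, against 15.3% to 34.0% elsewhere. Reads set aside in counting as ambiguous between genes made up 11.1% to 14.6% of theirs, against 3.03% to 6.30% elsewhere. Reads of low alignment quality made up 5.88% to 8.57% and 8.99% to 14.3%, respectively. What separates these tumors from the other groups and what separates the tables cannot be told apart.

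EGFR, ERBB2 and ERBB3 are related receptor tyrosine kinases of the ERBB family. EGFR binds TGFA, amphiregulin and HB-EGF, whereas ERBB2 has no known ligand of its own and ERBB3 signals mainly through partner receptors. MET is the receptor for hepatocyte growth factor (HGF), which stellate and other non-parenchymal cells of the liver make, and EGFR and MET together are known to drive liver regeneration. The insulin receptor sets hepatic glucose and lipid metabolism, and AXL, a receptor of the TAM family, is found on macrophages and on many tumors. The receptors share adaptors that lead to RAS and to PI3K-AKT signaling.

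Against liver, the RNA of *Egfr* and *Hgf* fell most in tumors, and that of *Erbb2* and *Hbegf* rose. In pooled Aldafermin+MYC and FGF19+MYC tumors all 9 tested genes passed the test (adjusted p under 0.05 over all 14333 genes): *Erbb2*, *Hbegf* and *Axl* rose, and *Egfr*, *Erbb3*, *Met*, *Insr*, *Hgf* and *Tgfa* fell. In this comparison 39.2% of all tested genes were higher and 34.5% were lower in tumors. In sgTrp53+MYC tumors 2 genes rose, *Erbb2* and *Hbegf*, and the same 6 genes fell, with 36.9% of all tested genes higher and 33.0% lower. Over the 9 genes, the log2 fold changes had a median of -1.02 in the first comparison and -1.24 in the other, beside medians of 0.10 and 0.07 over all tested genes. Both comparisons used the same 5 livers.

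**Figure D1:**
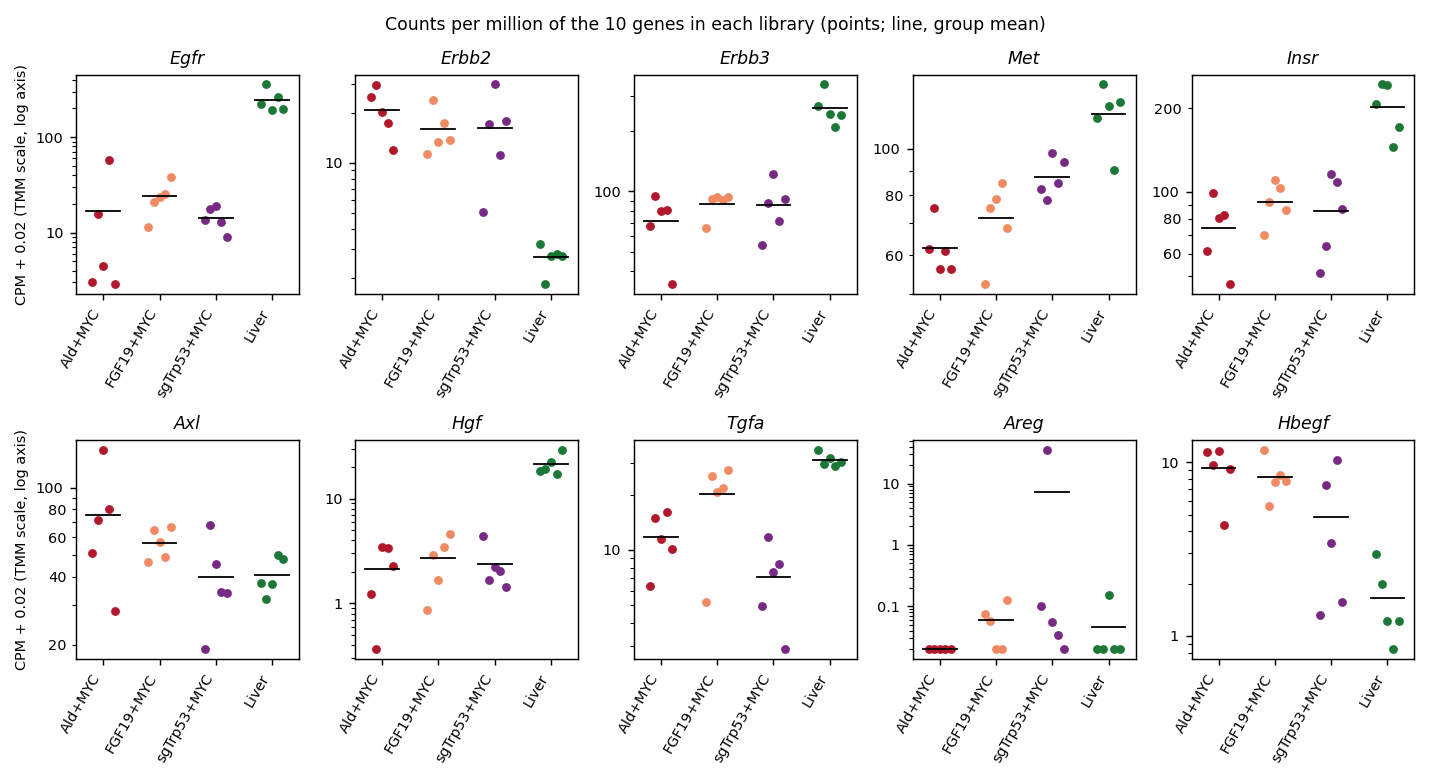
CPM, scaled with TMM factors, of the 10 genes in each of the 20 libraries, with 0.02 added and drawn on a log axis; each panel has its own range. Points are libraries and lines are group means of 5. *Egfr* and *Hgf* in liver lie above every tumor, *Erbb2* in liver lies below every tumor, and *Areg* is high in a single sgTrp53+MYC library.

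These changes were measured with TMM scaling, which lets the typical gene stay level between libraries. The TMM factors were 0.61 to 0.68 in liver and 1.00 to 1.31 in tumors. With library totals alone, the median log2 fold change of all genes moved from 0.10 to 0.94 for the pooled tumors against liver and from 0.07 to 0.95 for sgTrp53+MYC tumors. With that scaling the calls moved from 5616 higher and 4945 lower to 8763 higher and 2629 lower for the pooled tumors, and from 5286 higher and 4733 lower to 8534 higher and 2423 lower for sgTrp53+MYC tumors. The directions of *Egfr*, *Erbb2*, *Erbb3*, *Hgf* and *Hbegf* against liver and their calls held under both scalings, while *Met* turned, *Insr* in both comparisons and *Tgfa* in the pooled tumors were no longer called, and *Axl* was called higher in sgTrp53+MYC tumors (0.88, adjusted p = 0.0378). In bulk tissue, fewer cells of a type and less RNA per cell cannot be told apart.

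*Egfr* (chromosome 11, 16702198 to 16868158, plus strand, GRCm39 by GENCODE), the receptor for TGFA and its relatives, read 224, 356, 193, 261 and 198 CPM in the 5 livers. In Aldafermin+MYC tumors it read 3.04, 15.5, 4.43, 58.3 and 2.89 CPM, and in FGF19+MYC tumors 11.4, 21.1, 23.7, 25.5 and 38.1 CPM. In sgTrp53+MYC tumors it read 13.5, 17.5, 18.8, 12.8 and 9.01 CPM. Every tumor lay below every liver, and the Aldafermin+MYC tumors were spread over a range that included both the lowest and the highest tumors. *Egfr* fell 12.3-fold in the pooled tumors (log2 fold change -3.62, SE 0.52, adjusted p = 3.29e-06) and 17.2-fold in sgTrp53+MYC tumors (log2 fold change -4.11, SE 0.69, adjusted p = 2.74e-05). Without Aldafermin+MYC replicate 4, the tumor at 58.3 CPM, the pooled log2 fold change was -4.31. That tumor also had the highest summed hepatocyte markers of its group, 22631 CPM, against 8849 to 15893 CPM in the other 4. Replicate 5, at 15893 CPM of these markers, had the lowest *Egfr* of the group, 2.89 CPM. The part of hepatocyte content in the *Egfr* values was not tested.

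*Erbb2* (chromosome 11, 98303203 to 98328542, plus strand), the preferred partner of the other ERBB receptors, changed in the opposite direction. It read 3.23, 1.83, 2.69, 2.80 and 2.71 CPM in liver. In Aldafermin+MYC tumors it read 25.2, 29.5, 20.4, 17.3 and 12.0 CPM, and in FGF19+MYC tumors 11.3, 24.0, 13.4, 17.5 and 13.8 CPM. In sgTrp53+MYC tumors it read 5.06, 17.2, 29.9, 11.2 and 17.9 CPM, and no tumor overlapped with liver. *Erbb2* rose 6.92-fold in the pooled tumors (log2 fold change 2.79, SE 0.35, adjusted p = 6.49e-07) and 6.15-fold in sgTrp53+MYC tumors (log2 fold change 2.62, SE 0.37, adjusted p = 3.85e-06).

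The balance between the ERBB receptors therefore differed between liver and tumors. Per kilobase of transcript, the median ratio of *Egfr* to *Erbb2* was 36.4 in liver, with a range of 34.7 to 97.1. In tumors the median ratio was 0.12 for Aldafermin+MYC, 0.73 for FGF19+MYC and 0.51 for sgTrp53+MYC, and the highest ratio in any tumor was 1.68. The ratio of *Egfr* to *Erbb3* per kilobase had a median of 0.50 in liver and of 0.05, 0.15 and 0.11 in the tumor groups in the same order.

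*Erbb3* (chromosome 10, 128403392 to 128425811, minus strand), a receptor that binds neuregulins and has little kinase activity of its own, read 210 to 341 CPM in liver, 34.7 to 94.7 CPM in Aldafermin+MYC tumors, 65.9 to 93.7 CPM in FGF19+MYC tumors and 54.0 to 123 CPM in sgTrp53+MYC tumors. The tumors did not overlap with liver. *Erbb3* fell 3.31-fold in the pooled tumors (log2 fold change -1.73, SE 0.19, adjusted p = 1.39e-07) and 3.05-fold in sgTrp53+MYC tumors (log2 fold change -1.61, SE 0.24, adjusted p = 6.60e-06). *Insr* (chromosome 8, 3172061 to 3329647, minus strand), the insulin receptor, read 145 to 243 CPM in liver and 46.7 to 116 CPM over all 15 tumors, again without overlap. It fell 2.44-fold in the pooled tumors (log2 fold change -1.29, SE 0.19, adjusted p = 6.35e-06) and 2.37-fold in sgTrp53+MYC tumors (log2 fold change -1.24, SE 0.23, adjusted p = 0.0001).

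*Met* (chromosome 6, 17463749 to 17573979, plus strand), the HGF receptor, showed the smallest called decrease against liver. It read 116, 136, 123, 90.3 and 125 CPM in liver. In Aldafermin+MYC tumors it read 61.8, 75.2, 56.2, 61.3 and 56.1 CPM, in FGF19+MYC tumors 52.4, 75.2, 78.5, 84.9 and 68.4 CPM, and in sgTrp53+MYC tumors 82.4, 78.2, 98.0, 84.7 and 93.7 CPM. The pooled tumors lay below all livers, whereas the sgTrp53+MYC tumors overlapped with the lowest liver. *Met* fell 1.76-fold in the pooled tumors (log2 fold change -0.82, SE 0.11, adjusted p = 2.76e-06) and 1.35-fold in sgTrp53+MYC tumors (log2 fold change -0.43, SE 0.14, adjusted p = 0.00845). With library totals in place of TMM its log2 fold changes were 0.03 and 0.46, so its decrease was a decrease relative to the typical gene. The call in sgTrp53+MYC tumors was also lost with no filter on low counts (-0.15, adjusted p = 0.473) and with a fit of these 2 groups alone (-0.31, adjusted p = 0.0539).

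The promoter of *Met* is shown because, of the genes called against liver in both comparisons with all 4 groups in the fit, *Met* was the one whose promoter window held CACGTG, the E-box sequence that MYC is known to bind together with MAX. The RefSeq promoter table (GRCm38.p6, 250 bases before to 50 bases after the start site) matched 7 of the 10 genes, and *Erbb3*, *Insr* and *Hbegf* had no entry. The *Met* window, chr6:17463707-17464006 on the plus strand, is printed with CACGTG in capitals.
Met promoter: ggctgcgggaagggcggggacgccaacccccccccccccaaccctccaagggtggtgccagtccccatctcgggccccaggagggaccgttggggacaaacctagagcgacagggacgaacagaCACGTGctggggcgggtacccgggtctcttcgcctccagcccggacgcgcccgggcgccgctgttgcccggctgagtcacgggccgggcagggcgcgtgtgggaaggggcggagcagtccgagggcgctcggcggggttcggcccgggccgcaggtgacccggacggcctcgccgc
The motif begins 126 bases before the start site. CACGTG reads the same on both strands, and it was found in 2349 of 32851 promoter windows of this length (7.15%). The match is a description of the letters and not of a bound site, and the other 6 genes with an entry had none in their windows.

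*Axl* (chromosome 7, 25456535 to 25488329, minus strand) was the receptor with the least stable result. It read 37.4, 31.9, 37.3, 50.3 and 47.9 CPM in liver and 51.3, 71.8, 147, 80.5 and 28.3 CPM in Aldafermin+MYC tumors. The FGF19+MYC tumors read 46.4, 64.6, 57.0, 49.2 and 66.5 CPM, and the sgTrp53+MYC tumors 19.1, 67.9, 45.5, 34.1 and 34.0 CPM. All groups overlapped. *Axl* rose 1.60-fold in the pooled tumors (log2 fold change 0.68, SE 0.30, adjusted p = 0.048), a call that held in 4 of the 15 fits that left out 1 library each. The value was lowest without Aldafermin+MYC replicate 3 (0.49, adjusted p = 0.0967), and with FGF19+MYC tumors alone it was 0.47 and not called. Against liver, sgTrp53+MYC tumors had a log2 fold change of -0.03 (SE 0.34, adjusted p = 0.944), with an interval of 2 SE from -0.70 to 0.64. The 7 macrophage markers summed to 382 to 572 CPM in liver and to 84.3 to 480 CPM in tumors. Against liver, 4 of the 7 fell and 1 rose in pooled tumors, where 34.5% of all tested genes fell and 39.2% rose. In sgTrp53+MYC tumors 6 fell and 1 rose, beside 33.0% and 36.9% of all tested genes. *Cd68*, the marker that rose, averaged 16.9 CPM in liver and 79.1, 49.6 and 36.6 CPM in Aldafermin+MYC, FGF19+MYC and sgTrp53+MYC tumors. In the same order, *Clec4f* averaged 166 CPM in liver and 8.06, 22.5 and 7.06 CPM in tumors. For *Vsig4* the means were 43.2 CPM and 1.92, 9.41 and 3.36 CPM, and for *Timd4* 10.1 CPM and 1.14, 3.6 and 0.66 CPM. For *Cd5l* they were 138 CPM and 108, 204 and 54.5 CPM, and for *Adgre1* 26.8 CPM and 26.5, 19.9 and 9.87 CPM. The mean of *Csf1r* was lower in every tumor group than in liver. The 9 stellate cell and fibroblast markers reached 1599 CPM in Aldafermin+MYC replicate 3, the tumor with the highest *Axl*. The macrophage markers summed to 452 CPM in that tumor and to 152 to 358 CPM in the others of its group. In pooled relative to sgTrp53+MYC tumors, 4 of the 7 macrophage markers were higher and 0 lower, beside 11.6% and 12.1% of all tested genes. The part of these cells in the *Axl* values was not tested.

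**Figure D2:**
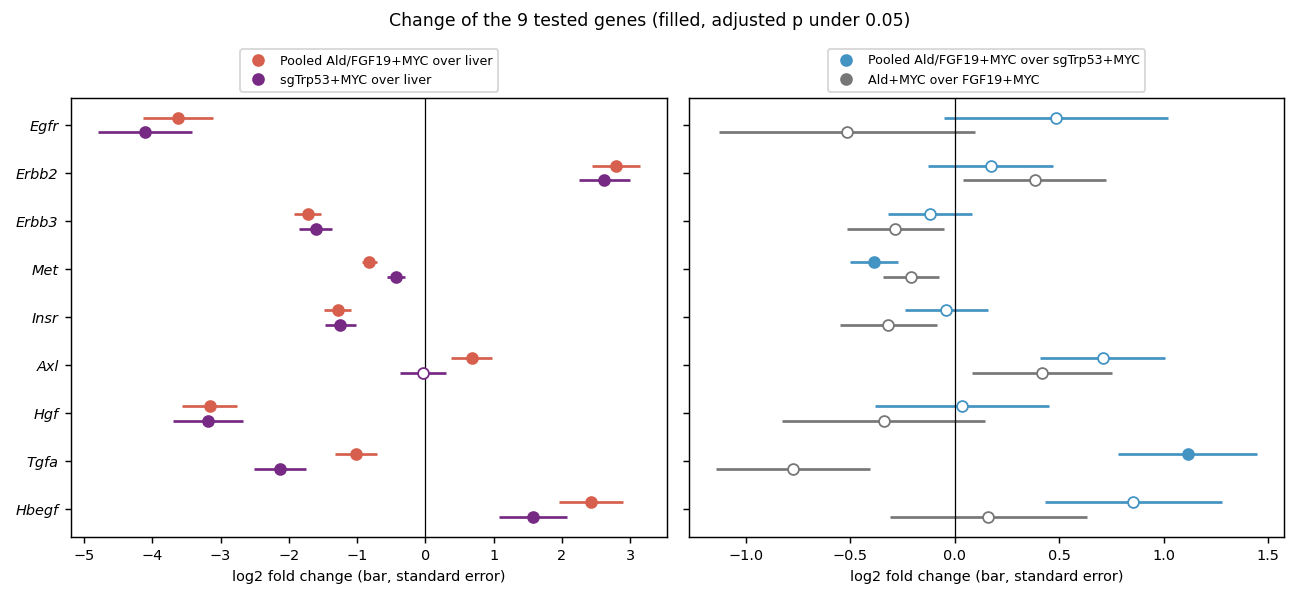
Log2 fold changes of the 9 tested genes, with bars of 1 standard error, from edgeR's quasi-likelihood test. Left, tumors over liver; right, pooled Aldafermin+MYC and FGF19+MYC tumors over sgTrp53+MYC tumors, and Aldafermin+MYC over FGF19+MYC tumors; filled points had an adjusted p under 0.05. *Egfr* and *Hgf* lie farthest below 0 against liver, *Erbb2* farthest above, and among tumors only *Met* and *Tgfa* are filled.

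Among the ligands, *Hgf* (chromosome 5, 16758041 to 16828178, plus strand) had the largest decrease. It read 18.5, 19.2, 22.4, 17.3 and 29.2 CPM in liver. In Aldafermin+MYC tumors it read 1.21, 0.35, 3.44, 3.38 and 2.27 CPM, in FGF19+MYC tumors 0.84, 2.88, 1.66, 3.40 and 4.57 CPM, and in sgTrp53+MYC tumors 4.37, 1.64, 2.23, 2.03 and 1.43 CPM. Every tumor lay below every liver. *Hgf* fell 8.92-fold in the pooled tumors (log2 fold change -3.16, SE 0.40, adjusted p = 7.71e-07) and 9.12-fold in sgTrp53+MYC tumors (log2 fold change -3.19, SE 0.51, adjusted p = 1.85e-05).

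Markers of the cells that make HGF moved with it in part. Of the 9 stellate cell and fibroblast markers, 5 fell and 2 rose in each comparison against liver (of all tested genes 34.5% and 33.0% fell and 39.2% and 36.9% rose in pooled and sgTrp53+MYC tumors), with median log2 fold changes of -0.99 and -1.32, and their sum was 563 to 753 CPM in liver and 125 to 1599 CPM in tumors. *Lrat*, an enzyme of vitamin A storage in quiescent stellate cells, averaged 25.5 CPM in liver and 0.87, 1.41 and 1.33 CPM in Aldafermin+MYC, FGF19+MYC and sgTrp53+MYC tumors. *Col1a1*, the collagen of activated fibroblasts, averaged 17.3 CPM in liver and 280, 174 and 82.9 CPM in those tumors. The 7 endothelial markers summed to 247 to 418 CPM in liver and to 56.3 to 198 CPM in tumors. Against liver, 4 of the 7 fell and 3 were not called in pooled tumors, beside 34.5% of all tested genes that fell. In sgTrp53+MYC tumors 5 fell and 2 were not called, beside 33.0%. *Pecam1* averaged 29.1 CPM in liver and 33.2, 28.0 and 20.9 CPM in the tumor groups in the same order. *Cdh5* averaged 39.9 CPM in liver and 41.6, 43.2 and 26.1 CPM in tumors. In the same order, *Stab2* averaged 69.3 CPM in liver and 13.3, 26.5 and 13.9 CPM in tumors. *Clec4g* averaged 85.6 CPM in liver and 1.71, 6.17 and 1.99 CPM in tumors. For *Kdr* the means were 58.7 CPM and 17.0, 21.6 and 15.1 CPM. For *Oit3* they were 45.5 CPM and 4.14, 11.5 and 3.72 CPM, and for *Lyve1* 15.6 CPM and 4.43, 11.8 and 4.49 CPM. The part of these cells in the *Hgf* difference was not tested.

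*Tgfa* (chromosome 6, 86172041 to 86252728, plus strand), an EGFR ligand that hepatocytes make, read 35.2, 29.5, 31.7, 28.8 and 30.1 CPM in liver. In Aldafermin+MYC tumors it read 6.36, 14.8, 11.4, 16.0 and 10.1 CPM, and in FGF19+MYC tumors 5.19, 25.3, 20.6, 21.9 and 27.3 CPM. In sgTrp53+MYC tumors it read 4.91, 11.8, 7.55, 8.35 and 2.85 CPM. All tumors lay below all livers, with 4 of the 5 FGF19+MYC tumors closest to them. *Tgfa* fell 2.02-fold in the pooled tumors (log2 fold change -1.02, SE 0.31, adjusted p = 0.00605) and 4.38-fold in sgTrp53+MYC tumors (log2 fold change -2.13, SE 0.38, adjusted p = 5.95e-05). For FGF19+MYC tumors alone against liver its log2 fold change was -0.63 and was not called.

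*Hbegf* (chromosome 18, 36637980 to 36649677, minus strand), a membrane-anchored EGFR ligand released by shedding, was the ligand that rose. It read 2.94, 1.98, 1.19, 0.82 and 1.20 CPM in liver. In Aldafermin+MYC tumors it read 11.4, 9.58, 11.6, 4.35 and 9.06 CPM, in FGF19+MYC tumors 11.8, 5.57, 7.72, 8.42 and 7.73 CPM, and in sgTrp53+MYC tumors 1.30, 7.42, 3.43, 10.3 and 1.55 CPM. The pooled tumors did not overlap with liver, while 2 of the 5 sgTrp53+MYC tumors did. *Hbegf* rose 5.38-fold in the pooled tumors (log2 fold change 2.43, SE 0.48, adjusted p = 0.000134) and 2.97-fold in sgTrp53+MYC tumors (log2 fold change 1.57, SE 0.50, adjusted p = 0.00872).

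*Areg* (chromosome 5, 91287451 to 91296291, plus strand), the gene of amphiregulin, was close to undetected in 19 of the 20 libraries, with 0 to 5 reads in each. In sgTrp53+MYC replicate 2 it had 2551 reads, or 35.7 CPM. The sgTrp53+MYC mean of 7.17 CPM (SD 15.9, n = 5) was therefore the value of a single tumor, and *Areg* did not pass the filter for testing. *Btc* and *Ereg*, the ligands betacellulin and epiregulin, were also highest in that tumor, at 12.4 and 9.03 CPM, against 0.07 to 0.49 CPM and 0.10 to 0.30 CPM in the other 4 sgTrp53+MYC tumors. They were singled out after their values had been seen.

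The same tumor differed from the others in biliary markers. The 6 cholangiocyte markers summed to 779 CPM in it, to 3.85 to 41.3 CPM in the other 4 sgTrp53+MYC tumors, to 1.81 to 87.9 CPM in Aldafermin+MYC and FGF19+MYC tumors, and to 44.3 to 125 CPM in liver. *Krt19* and *Krt7*, keratins of bile ducts, read 191 and 80.9 CPM in it and at most 2.33 and 0.27 CPM in the other 4, whereas *Cftr*, a chloride channel of bile duct cells, read 0.07 CPM, with 5 reads. The part of such cells in the *Areg* value was not tested. Without this library, the sgTrp53+MYC comparison with liver still had *Egfr*, *Erbb3*, *Met*, *Insr*, *Hgf* and *Tgfa* called lower and *Erbb2* and *Hbegf* called higher.

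**Figure D3:**
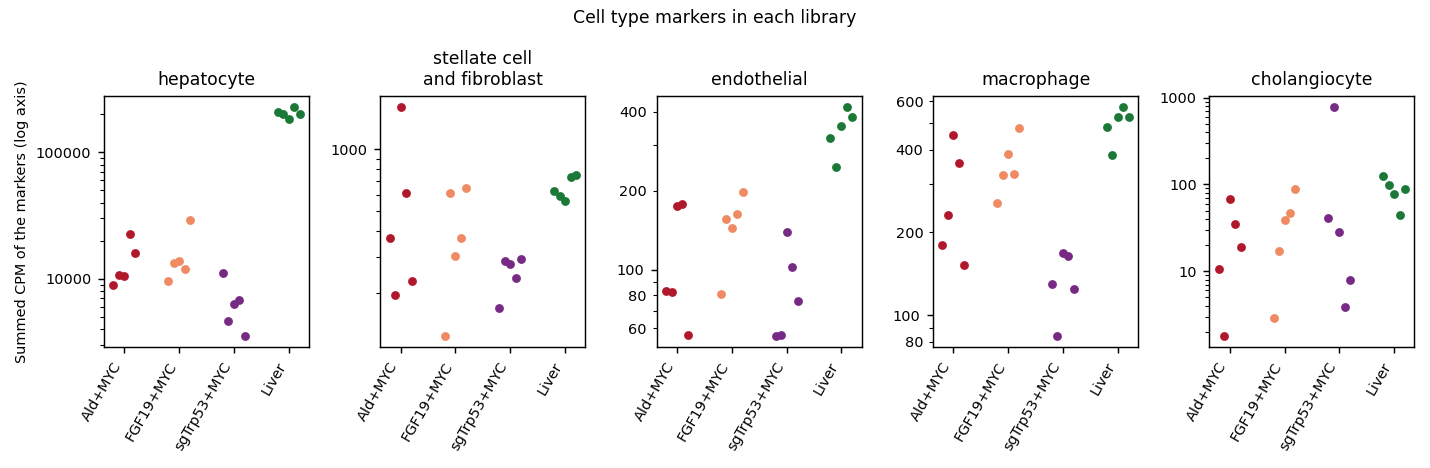
Summed CPM of 5 fixed marker lists in each library, on log axes with a separate range for each list. Hepatocyte and endothelial sums are higher in all livers than in all tumors, and sgTrp53+MYC replicate 2 stands alone at 779 CPM of cholangiocyte markers.

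The order of the 10 genes by level differed between liver and tumors when levels were given as CPM per kilobase of transcript. In liver the order was *Erbb3* (mean 43.1, SD 8.21), *Egfr* (24.1, SD 6.56), *Insr* (21.4, SD 4.59), *Met* (17.2, SD 2.48), *Axl* (8.82, SD 1.68), *Tgfa* (6.59, SD 0.54) and *Hgf* (3.27, SD 0.74), and the last were *Hbegf* (0.68, SD 0.36), *Erbb2* (0.52, SD 0.10) and *Areg* (0.02, SD 0.05). *Egfr* and *Insr*, *Insr* and *Met*, and *Hbegf* and *Erbb2* were neighbors that differed by less than the larger of their SDs. In FGF19+MYC tumors *Erbb3* (14.4, SD 1.96), *Axl* (12.2, SD 1.92), *Met* (10.5, SD 1.81) and *Insr* (9.82, SD 1.66) came first, of which *Axl* and *Met*, and *Met* and *Insr*, differed by less than the larger of their SDs, and *Egfr* (2.34, SD 0.94) came after *Tgfa*, *Hbegf* and *Erbb2*. There *Erbb2* (3.14, SD 0.98) and *Egfr* also differed by less than the larger of their SDs. *Erbb3*, *Axl*, *Met* and *Insr* also led in Aldafermin+MYC tumors, where *Axl* came first (16.3, SD 9.64), and in sgTrp53+MYC tumors, where *Erbb3* came first (14.2, SD 4.25). Each differed from the next gene, *Erbb3* (11.8, SD 3.76) and *Met* (12.7, SD 1.20), by less than its own SD. In sgTrp53+MYC tumors *Egfr* (1.40, SD 0.38) and *Hgf* (0.36, SD 0.18) were the lowest by mean, but the mean of *Areg* (5.86, SD 13.1) came from replicate 2, and in the other 4 tumors *Areg* lay below both.

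**Figure D4:**
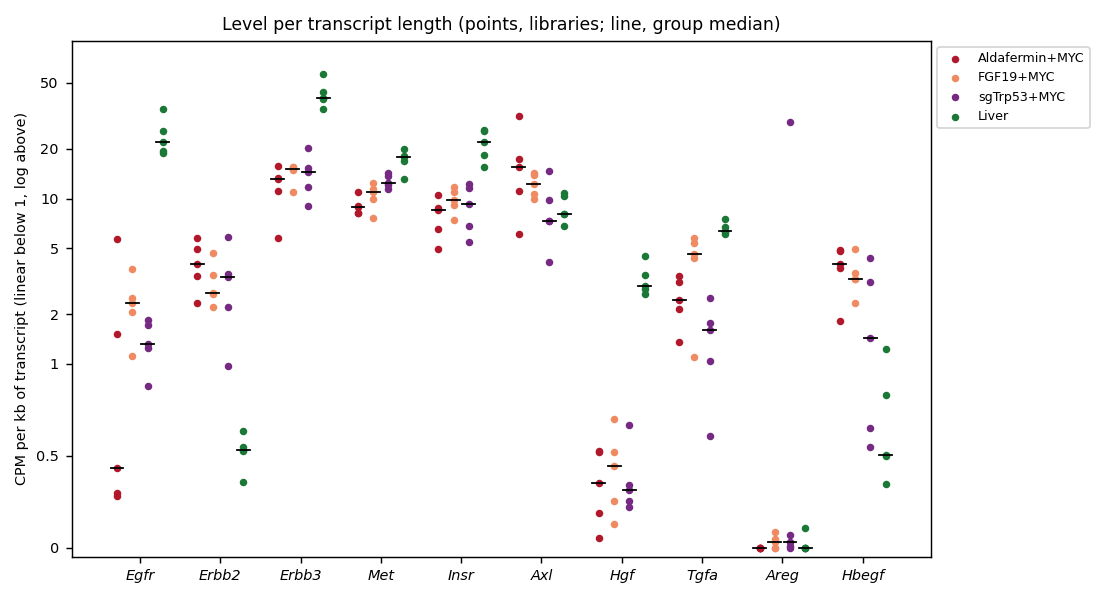
Level of the 10 genes per kilobase of transcript in each library, on an axis that is linear below 1 and logarithmic above. Points are libraries, coloured by group, and lines are group medians of 5. *Egfr* moves from near the top in liver to among the low genes in tumors, and *Erbb2* moves from among the lowest in liver to the middle in tumors.

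The pooled Aldafermin+MYC and FGF19+MYC tumors were then compared with sgTrp53+MYC tumors. The latter received the *Trp53* guide in place of a hormone plasmid and were deposited in a table of their own. Effects of the hormone, the guide and the table cannot be told apart in this comparison. Of the 9 tested genes, *Tgfa* was higher and *Met* was lower in the pooled tumors, and 7 were not called, while 11.6% of all tested genes were higher and 12.1% lower. The log2 fold changes had a median of 0.17 over the 9 genes and of -0.02 over all genes. *Tgfa* was 2.17-fold higher (log2 fold change 1.12, SE 0.33, adjusted p = 0.0211) and *Met* was 1.31-fold lower (log2 fold change -0.39, SE 0.12, adjusted p = 0.0212), and the groups overlapped for both. Neither of these calls held without sgTrp53+MYC replicate 5, the tumor with the lowest *Tgfa* (log2 fold changes 0.92 and -0.36), and *Met* was also not called without replicate 3 (-0.34). With a single group in place of the pool, *Tgfa* was not called for Aldafermin+MYC tumors (0.73, adjusted p = 0.183) and *Met* was not called for FGF19+MYC tumors (-0.28, adjusted p = 0.168).

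Among the genes that were not called here, *Axl* had a log2 fold change of 0.71 (SE 0.30, adjusted p = 0.094) and was called without sgTrp53+MYC replicate 2 (0.98, adjusted p = 0.0305) or without Aldafermin+MYC replicate 5 (0.77). *Hbegf* had a log2 fold change of 0.86 (SE 0.42, adjusted p = 0.154) and was called without sgTrp53+MYC replicate 4 (1.35). *Egfr* (0.48), *Erbb2* (0.17), *Erbb3* (-0.12), *Insr* (-0.04) and *Hgf* (0.03) had log2 fold changes within 1 SE of 0 (SE 0.54, 0.30, 0.20, 0.20 and 0.42). The direction of *Egfr* rested on Aldafermin+MYC replicate 4, without which its value was -0.20. With 2 SE on either side, the difference in *Insr* lay between -0.44 and 0.36 and that in *Egfr* between -0.59 and 1.56, so the data limit the difference more closely for *Insr* than for *Egfr*.

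Aldafermin differs from FGF19 by a short deletion and a few substitutions near its N-terminus, and setting Aldafermin+MYC against FGF19+MYC tumors asks whether the analog gives a different tumor. None of the 9 genes was called, and neither was any of the 14333 genes tested (0%) by edgeR's quasi-likelihood test, although 1048 genes had an unadjusted p under 0.05 and the DESeq2 Wald test called 96, none of them among the 9. *Tgfa* was the only one of the 9 with an unadjusted p under 0.05 (log2 fold change -0.78, SE 0.37, adjusted p = 0.676 by edgeR's quasi-likelihood test), and its groups overlapped. The intervals of 2 SE were -0.48 to 0.06 for *Met*, -0.75 to 0.18 for *Erbb3*, -0.78 to 0.14 for *Insr* and -1.51 to -0.04 for *Tgfa*. They were wider for *Egfr*, at -1.74 to 0.71, where the log2 fold change was -0.52 with all libraries and -1.89 (adjusted p = 0.0922) without Aldafermin+MYC replicate 4. For *Erbb2* (0.38), *Axl* (0.42) and *Hbegf* (0.16) the Aldafermin+MYC mean was the higher one, and for *Hgf* (-0.34) the lower one.

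The system reaches beyond these receptors and ligands, and 51 of 56 further genes with roles in it were tested. Against liver, 11 were higher, 27 lower and 13 not called in the pooled tumors, and 8 were higher, 22 lower and 21 not called in sgTrp53+MYC tumors, where 39.2% and 36.9% of all tested genes were higher and 34.5% and 33.0% were lower. Their median log2 fold changes were -0.48 and -0.46. In pooled tumors relative to sgTrp53+MYC tumors 7 were higher, 4 lower and 40 not called, beside 11.6% higher and 12.1% lower of all tested genes, and between Aldafermin+MYC and FGF19+MYC tumors none was called, with 6 at an unadjusted p under 0.05. Without Aldafermin+MYC replicate 4 and sgTrp53+MYC replicate 2, the counts for the first 3 comparisons were 11 higher and 28 lower, 8 higher and 25 lower, and 6 higher and 3 lower.

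**Figure D5:**
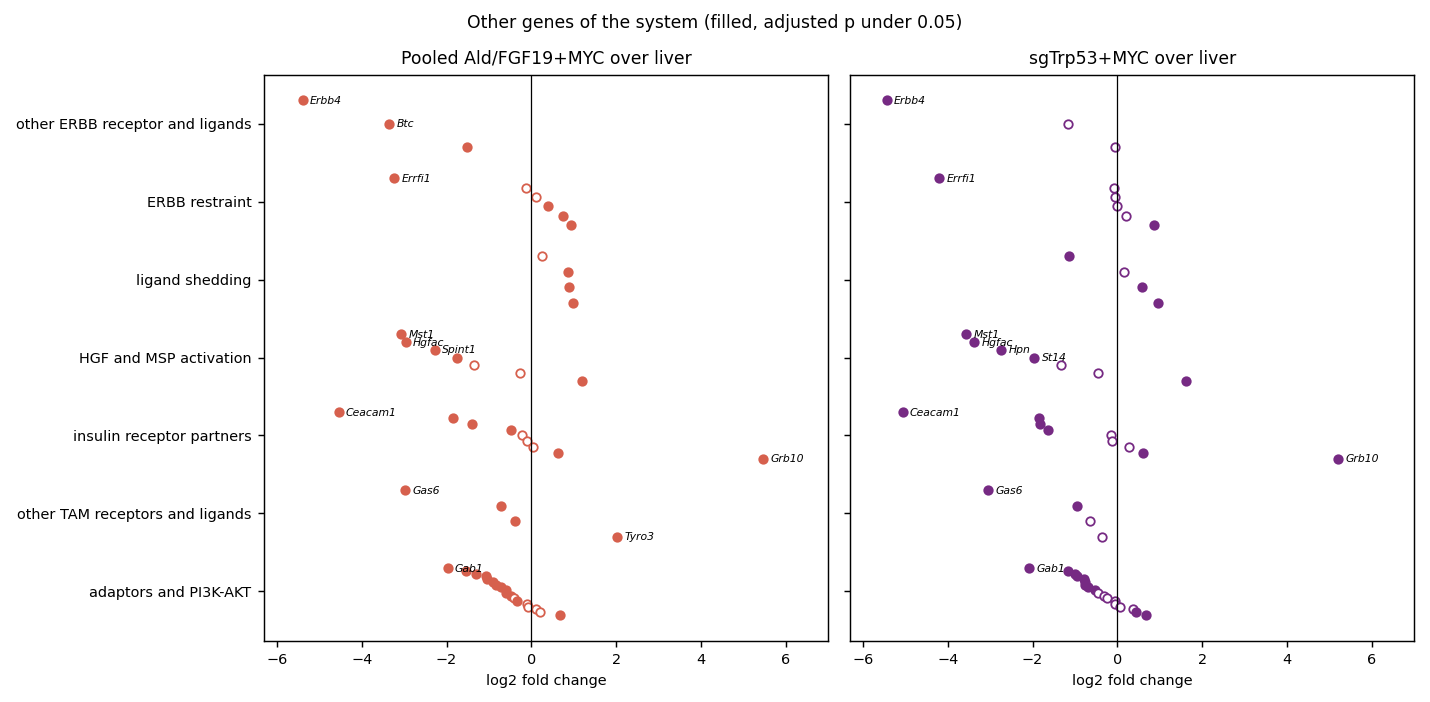
Log2 fold changes against liver of the 51 further genes tested, grouped by role, for pooled Aldafermin+MYC and FGF19+MYC tumors and for sgTrp53+MYC tumors. Each point is a gene and filled points had an adjusted p under 0.05; the genes farthest from 0 are named. *Grb10* stands alone at the right, and *Hgfac* and *Mst1*, genes of liver-secreted proteins, lie to the left.

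HGF is secreted as an inactive chain that is cut by HGFA, the product of *Hgfac*, and by hepsin, the product of *Hpn*, and *Mst1* encodes a related factor that binds the receptor RON. *Hgfac* averaged 670 CPM in liver and 88.4, 83.2 and 64.7 CPM in Aldafermin+MYC, FGF19+MYC and sgTrp53+MYC tumors (log2 fold changes -2.97 and -3.37, SE 0.16 and 0.21, adjusted p = 5.13e-12 and 4.86e-11). *Mst1* averaged 270 CPM in liver and 22.8 to 33.6 CPM in the tumor groups (log2 fold changes -3.07 and -3.56). *Hpn* averaged 755 CPM in liver, 230 and 220 CPM in Aldafermin+MYC and FGF19+MYC tumors and 113 CPM in sgTrp53+MYC tumors. It fell in both comparisons (log2 fold changes -1.74 and -2.74), and it was higher in the pooled tumors than in sgTrp53+MYC tumors, without overlap (1.00, SE 0.14, adjusted p = 7.92e-05). Of the 7 genes of HGF and MSP activation, 4 fell and 1 rose in each comparison against liver, where 34.5% (pooled) and 33.0% (sgTrp53+MYC) of all tested genes fell and 39.2% and 36.9% rose.

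Of the 4 genes of ligand shedding, 3 rose and 0 fell in the pooled tumors, and 2 rose and 1 fell in sgTrp53+MYC tumors, beside 39.2% and 36.9% of all tested genes that rose and 34.5% and 33.0% that fell. *Adam10* and *Adam17*, the proteases that free EGFR ligands, averaged 41.7 and 28.1 CPM in liver. *Adam10* rose in the pooled tumors and in sgTrp53+MYC tumors (log2 fold changes 0.99 and 0.94, SE 0.12 and 0.14, adjusted p = 7.33e-07 and 6.27e-06), and so did *Adam17* (0.87 and 0.58). *Errfi1*, which encodes an inhibitor of the EGFR kinase, averaged 1557 CPM in liver and 153, 178 and 84.4 CPM in the tumor groups. It fell in both comparisons (-3.24 and -4.20, SE 0.28 and 0.38, adjusted p = 4.41e-09 and 1.06e-08), and it was the 1 gene that fell among the 6 of ERBB restraint, of which 3 rose in the pooled tumors and 1 in sgTrp53+MYC tumors, counts to be read against the same shares of all genes. *Btc* had a log2 fold change of -3.29 in pooled relative to sgTrp53+MYC tumors that turned to 0.39 (adjusted p = 0.75) without sgTrp53+MYC replicate 2, so that its call rested on that tumor.

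Around the insulin receptor, *Grb10*, an imprinted gene whose product binds and restrains the receptor, had the largest increase of the 51 genes. It read 3.52 to 5.39 CPM in liver, 101 to 413 CPM in Aldafermin+MYC tumors, 75.1 to 186 CPM in FGF19+MYC tumors and 7.40 to 503 CPM in sgTrp53+MYC tumors. All tumors lay above all livers, although sgTrp53+MYC replicates 1 and 2 stayed at 7.40 and 19.6 CPM. *Grb10* rose in both comparisons (log2 fold changes 5.47 and 5.19, SE 0.82 and 0.83, adjusted p = 5.86e-06 and 1.68e-05). *Grb14*, a related adaptor, was lower in the pooled tumors than in sgTrp53+MYC tumors, without overlap (-0.76, SE 0.14, adjusted p = 0.00066), and *Trib3*, which encodes a pseudokinase that binds AKT, was higher, also without overlap (1.72, SE 0.36, adjusted p = 0.00224).

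Among the adaptors and PI3K-AKT genes, 12 of 18 fell and 1 rose in the pooled tumors, and 9 fell and 2 rose in sgTrp53+MYC tumors (of all tested genes, 34.5% fell and 39.2% rose in the first and 33.0% and 36.9% in the other), with median log2 fold changes of -0.60 and -0.50. *Akt1*, a kinase downstream of PI3K, was the gene that rose in both (0.67 and 0.66, SE 0.17 and 0.19, adjusted p = 0.00132 and 0.00398). Among the other TAM genes, *Tyro3*, a receptor related to AXL, read 1.17 to 7.42 CPM in pooled tumors and 0.03 to 1.09 CPM in sgTrp53+MYC tumors. It was higher in the pooled tumors, without overlap (log2 fold change 2.66, SE 0.61, adjusted p = 0.00430).

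For 8 of the 9 genes tested, the genes with the most similar pattern are given, found by the root mean square difference of centred log2 CPM over the 20 libraries. *Hgf* was nearest to *Bmp5* (0.38) and *Dcn* (0.41), with a spread of its own of 1.66 on that scale, and *Met* was nearest to *Arfgef1* (0.15) and *Ube4a* (0.15), with a spread of 0.39. *Erbb2* was nearest to *Zbtb45* (0.40), *Erbb3* to *Ppp1r37* (0.21), *Insr* to *Kidins220* (0.19), *Axl* to *Tgfb1* (0.28), *Tgfa* to *Hid1* (0.49) and *Hbegf* to *Chpf* (0.58). The libraries share the contrast between liver and tumor, which most genes also follow.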

How the data were processed

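Poly(A) RNA of 15 individual tumors and 5 livers was sequenced as paired reads of 150 bases. Per the study's methods, the authors aligned reads to mm39 with HISAT2 and counted them per RefSeq gene with htseq-count, and the submitters' processing notes name bcl2fastq 2.20.0.422. The deposited values were raw counts per gene, with neither scaling nor filtering, in a table of 15 libraries and a table of the 5 sgTrp53+MYC libraries. The 5 summary lines of htseq-count were left out, and 0 columns lacked a sample. How strand was treated in counting is not given in the sources used here. If strand was ignored, reads where genes on opposite strands overlap would be among the ambiguous reads.

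Groups and replicate numbers were taken from sample titles, since the treatment field of the sgTrp53+MYC libraries reads none. Counts were tested with edgeR 4.0.16 (limma 3.58.1, R 4.3.3): TMM scaling, at least 1 CPM in at least 5 libraries, one quasi-likelihood model of the 4 groups, and Benjamini-Hochberg adjustment over 14333 genes, called at 0.05. The legacy form of the quasi-likelihood fit was used. CPM were computed with TMM factors. The standard error is the log2 fold change divided by the square root of the F statistic. The pooled contrast is the mean of both group coefficients. Transcript lengths came from GENCODE (GRCm39), and promoter windows from RefSeq (GRCm38.p6). The test was first tested on simulated data.

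The 10 genes, the other lists and the tests were chosen with earlier results of these data known. All 10 genes were named, and of the 56 other genes those with the smallest adjusted p without overlap between groups, up to 4 in each direction, with further names said to be chosen after their values were seen. The genes most similar in pattern to *Egfr* are not reported here. Alternatives were DESeq2 1.42.0, a likelihood ratio test, other scalings and filters, a replicate block, a correction for GC content and length, single groups, and each library left out. The bias-adjusted fit of edgeR and the joint removal of Aldafermin+MYC replicate 4 and sgTrp53+MYC replicate 2 were added after seeing the data. These libraries stood apart for *Egfr* and *Areg*, and were not the libraries farthest from their groups over all genes. Replicate numbers belong to different mice. Replicates of a group were distinct libraries (lowest chi-square per degree of freedom 13.9). By this measure FGF19+MYC replicate 1 lay at 179 to 241 from its group, where the others lay at 13.9 to 92.9 from each other. For Aldafermin+MYC replicate 5 these values were 171 to 223 and 80.5 to 140, and for sgTrp53+MYC replicate 1 they were 372 to 665 and 118 to 253. The measure was computed on raw counts and depends on depth, so its values are not compared between groups. How far the number of libraries, the spread between tumors and depth each limit the precision of genes above a few CPM was not tested.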

Additional observations from a re-analysis of the deposited data

Results flagged for a closer look

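In 4 of the 37 gene and group combinations that could be checked, 1 library lay far from the other 4 of its group (a gap of more than 0.71 of the group's range). For normally distributed values, chance gives such a gap in about 1 in 20 groups, or 1.85 of 37. The gaps were taken on CPM without a log, where that share may not hold. *Egfr* read 58.3 CPM in Aldafermin+MYC replicate 4, against 2.89 to 15.5 CPM in the others. *Erbb3* read 65.9 CPM in FGF19+MYC replicate 1, against 90.1 to 93.7 CPM. *Hgf* read 4.37 CPM in sgTrp53+MYC replicate 1, against 1.43 to 2.23 CPM. *Areg* read 35.7 CPM in sgTrp53+MYC replicate 2, against 0 to 0.08 CPM.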

How the results depend on the processing

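The total number of genes called against liver, higher and lower together, stayed within 1.5 times of the reported one under every alternative, but with library totals the number higher rose and the number lower fell by more than that (8763 and 2629 in pooled, 8534 and 2423 in sgTrp53+MYC tumors). Between Aldafermin+MYC and FGF19+MYC tumors none of the 9 genes was called under any alternative, whereas the count over all genes was 0 as reported, 96 with DESeq2, 59 with the likelihood ratio test, 2 with RLE size factors, 1 with the filter of 1 CPM in all 20 libraries, 7 with the GC and length correction, 10 with the bias-adjusted test, 35 without the pair of libraries that stood apart, and 0 to 29 with 1 library left out (29 without Aldafermin+MYC replicate 4, 6 without replicate 2). Between pooled and sgTrp53+MYC tumors the 2 calls became 1 with the compared groups alone, with the GC and length correction, and with either Aldafermin+MYC (*Tgfa* lost) or FGF19+MYC tumors (*Met* lost) alone, and 0 to 3 with 1 library left out (1 without sgTrp53+MYC replicate 3, 0 without replicate 5). All genes called there numbered 2258 with FGF19+MYC tumors alone, against 3399.

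Between pooled and sgTrp53+MYC tumors, the log2 fold change of *Hgf* (0.03) became -0.019 with DESeq2, -0.018 with RLE size factors, -0.090 with no filter, -0.073 with the replicate block, -0.14 with Aldafermin+MYC tumors alone and -0.18 without the pair of libraries that stood apart, where *Egfr* became -0.12. *Erbb2* and *Erbb3* became -0.020 and 0.025 with FGF19+MYC tumors alone, and *Insr* became 0.12 there and 0.13 with the GC and length correction. Leaving out 1 library gave ranges of -0.20 (without Aldafermin+MYC replicate 4) to 0.62 (*Egfr*), -0.058 to 0.51 (*Erbb2*), -0.25 to 0.048 (*Erbb3*), -0.18 to 0.094 (*Insr*) and -0.11 to 0.38 (*Hgf*). Against liver, library totals without TMM turned *Met* to 0.034 in pooled and 0.46 (adjusted p = 0.0192) in sgTrp53+MYC tumors, and *Axl* in sgTrp53+MYC tumors to 0.88 (adjusted p = 0.0378). That value of *Axl* was 0.25 with no filter, 0.041 with 1 CPM in all libraries, 0.087 with the compared groups alone, 0.032 with the GC and length correction, and -0.30 to 0.15 with 1 library left out.

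With the replicate block, the 9 genes gave 0, 2, 8 and 8 calls in the comparisons of Aldafermin+MYC with FGF19+MYC, pooled with sgTrp53+MYC, pooled with liver and sgTrp53+MYC with liver. The lost call was *Axl* (0.60). Of 30 pairs of same-numbered libraries, 6 had correlated deviations over 0.1 (range -0.33 to 0.33), so the numbers do not pair the libraries. At 0 to 5 reads, *Areg* outside sgTrp53+MYC replicate 2 is limited by depth.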

Other observations

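The rule of at least 1000 reads in 1 library and at most 5 in each of the other 19, set after *Areg* had been seen, found 6 genes in sgTrp53+MYC replicate 2 (*Acan*, *Areg*, *Cdx2*, *Il5ra*, *Lgals7* and *Prss22*) and 0 to 1 in every other library. *Ceacam1*, which encodes an adhesion molecule that takes part in insulin clearance, read 233 to 303 CPM in liver and 2.51 to 26.3 CPM in tumors. *Gas6*, which encodes the ligand of AXL, averaged 148 CPM in liver and 24.2, 14.7 and 17.9 CPM in Aldafermin+MYC, FGF19+MYC and sgTrp53+MYC tumors, with log2 fold changes of -2.97 and -3.04 for the pooled and sgTrp53+MYC tumors against liver (adjusted p = 1.75e-07 and 4.28e-06, edgeR's quasi-likelihood test). *Erbb4*, the remaining ERBB receptor, read 2.39 to 6.53 CPM in liver and 0 to 0.40 CPM in tumors. These genes were chosen after their values had been seen.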
